A study of Mus musculus with 45 samples.

Results

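Inflammatory monocytes (iMo) sorted from mouse lung were compared at 6h and at 2h after intraperitoneal lipopolysaccharide (LPS), the outer membrane glycolipid of Gram-negative bacteria. The comparison holds 4 of the 45 libraries of the series: 2 replicates, A and B, at each time, written 2h A, 2h B, 6h A and 6h B. All 4 carry the same code in their titles. The study profiled alveolar macrophages (AM), interstitial macrophages (IM) and iMo by low-input messenger RNA sequencing before and after LPS given by the intraperitoneal or the nasal route. Every animal was of the inbred strain C57BL/6J, and the labels give no other genotype and no second agent for any group used here. Besides the 4 iMo libraries, 2 iMo libraries of 0h (another title code) and 2 of 20h after intraperitoneal LPS are given as levels. The 4 IM libraries and 5 AM libraries of 2h and 6h after intraperitoneal LPS serve for comparison. Those libraries carry 2 title codes, that of the 4 iMo libraries and another. The table lists 23594 genes, of which 8937 reached 5 TPM (a library's transcripts scaled to a fixed sum and for gene length) in at least 2 of 27 libraries and were tested.

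Classical, Ly6C-high monocytes leave the bone marrow under the chemokine receptor CCR2 and enter inflamed tissue. LPS bound by CD14 and TLR4 signals through MyD88 to NF-kB, which switches on cytokine, chemokine and feedback inhibitor genes. TLR4 also signals through TRIF and IRF3 to interferon beta, and interferon then acts through its receptor on genes with an interferon-stimulated response element (ISRE). Feedback inhibitors such as A20, IkB alpha, USP18 and SOCS proteins damp both branches.

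The 4 iMo libraries carried the defining genes of classical monocytes. Ly6c2 stood at 1004 and 1380.0 TPM at 2h and 2103 and 1166 TPM at 6h, and Ccr2 at 328 and 168 TPM at 2h and 121 and 133 TPM at 6h. The labels do not tie A and B to separate animals or cultures, so p-values measure only the spread between libraries, which may be technical. That spread was taken within the 12 groups of the 27 libraries fitted together, not within these 4 libraries alone. Log2(TPM+1) correlated across genes at a Pearson r of 0.947 between 2h A and 2h B, 0.928 between 6h A and 6h B, and 0.862 to 0.898 across times. Rn45s, the ribosomal RNA precursor, took 12.21 and 9.26% of the TPM sum at 2h and 14.58 and 25.02% at 6h, highest in 6h B. TPM is scaled within a library and keeps no read depth, so depth is unknown, and in bulk RNA fewer cells of a type and less RNA per cell cannot be told apart.

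Between 2h and 6h, 726 of 8937 genes changed (8.12%), 295 higher at 6h (3.3%) and 431 lower (4.82%), by limma on log2(TPM+1) at a Benjamini-Hochberg adjusted p under 0.05. The fold changes below are on that scale, which understates changes of low genes. Each count of called list members below is to be read against the shares of 3.3% higher and 4.82% lower. The median gene changed by -0.08, or by 0.20 after rescaling each library to a fixed sum without Rn45s and Lars2. That rescaling moved the share of calls that were higher from 40.6 to 69.9%, and quantile normalization moved it to 50.3%. Genes with log2 fold changes of 2 or more numbered 89 upward and 142 downward. The 2h and 6h libraries did not overlap in 725 of the 726, against 4485 of all genes tested (50.2%). Separation of the libraries of a called gene is therefore no further evidence for it. The 15 largest rises and falls were also chosen among genes without overlap. Calls depended on single libraries: 146 of the 726 were made whichever of the 4 libraries was left out, and 223 genes were called without 2h B. The 5 largest falls were those of Rilpl1, Serpinb2, Il15, Cxcl11 and Ccl4, and 6 of the 15 largest were listed interferon-stimulated genes. Cyclin B2 (Ccnb2), histone and neutrophil granule genes were among the 15 largest rises.

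**Figure D1:**
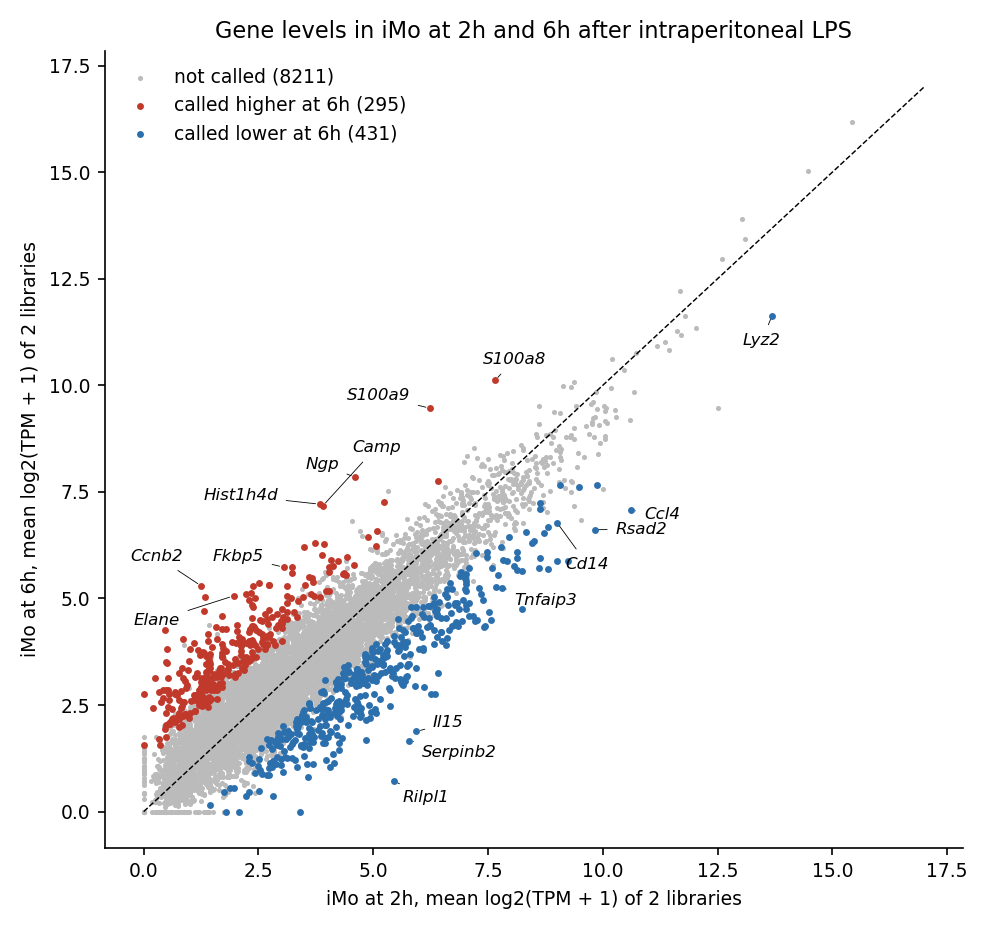
Mean log2(TPM+1) of the 2 iMo libraries at 2h (x axis) against the mean of the 2 at 6h (y axis), 1 point per gene tested, with genes higher and lower at 6h in colour. Most genes lie along the diagonal, and the 431 lower genes lie below it, with Rilpl1, Serpinb2 and Il15 farthest.

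The promoters of these genes are shown with the motifs that the pathways above are known to use. RefSeq start sites (GRCm38.p6, the same base assembly as mm10) were found for 7266 of the 8937 genes, and windows ran from 250 bases before to 50 after each start. The ISRE was searched as GAAANNGAA on both strands, with overlapping matches allowed, and it was held by 83 of 446 windows of genes lower at 6h (18.6%). The share was 6.56% for genes higher at 6h and 7.66% for all genes tested, and it was 8.56% for all windows of the RefSeq table. NF-kB sites were searched by a base pattern on both strands, given here by name only. They were in 11% of windows of lower genes, 10.8% of higher genes and 10.5% of all genes tested (8.46% in the RefSeq table). The CCAAT box (CCAAT, both strands) and the cell cycle homology region (CHR, TTTGAA, both strands), 2 elements of mitotic promoters, were added after the values were seen. CCAAT was in 47.5% of windows of higher genes, 39.2% of lower genes and 37.5% of all genes tested (37.4% in the table). CHR was in 18%, 14.1% and 11.9% (17.9% in the table). A match is a stretch of letters and not a measured site. Below are the 250 bases before the start of 3 genes among the 15 largest falls that hold an ISRE, 1 that holds an NF-kB site, and 3 among the 15 largest rises, 5′ to 3′ on the gene's strand. Capitals mark ISRE and NF-kB letters in the 4 falling genes, and CCAAT and CHR letters in the 3 rising genes. The other motifs are not marked in either set, so lower case letters there can also hold a match, as CCAAT does in Tnip3.
Ifit1: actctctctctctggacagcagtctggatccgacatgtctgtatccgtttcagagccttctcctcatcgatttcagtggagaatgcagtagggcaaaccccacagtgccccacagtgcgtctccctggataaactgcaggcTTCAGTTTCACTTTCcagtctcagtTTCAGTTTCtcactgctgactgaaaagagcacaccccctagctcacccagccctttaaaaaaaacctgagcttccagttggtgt
Rsad2: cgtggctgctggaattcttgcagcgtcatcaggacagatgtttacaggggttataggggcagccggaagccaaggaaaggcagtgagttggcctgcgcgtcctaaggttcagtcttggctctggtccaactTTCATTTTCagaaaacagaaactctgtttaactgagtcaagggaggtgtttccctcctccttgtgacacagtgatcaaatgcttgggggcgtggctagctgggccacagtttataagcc
Slfn9: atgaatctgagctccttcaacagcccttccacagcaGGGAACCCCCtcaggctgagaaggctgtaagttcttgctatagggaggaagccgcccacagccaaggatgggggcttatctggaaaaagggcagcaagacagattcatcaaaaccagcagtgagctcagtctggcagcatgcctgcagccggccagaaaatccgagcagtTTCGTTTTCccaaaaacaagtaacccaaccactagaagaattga
Tnip3: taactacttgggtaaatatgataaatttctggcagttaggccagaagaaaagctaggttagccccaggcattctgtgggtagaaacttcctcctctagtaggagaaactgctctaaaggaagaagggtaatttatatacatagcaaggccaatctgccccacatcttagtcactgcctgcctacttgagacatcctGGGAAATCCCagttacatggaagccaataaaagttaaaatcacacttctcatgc
Ccnb2: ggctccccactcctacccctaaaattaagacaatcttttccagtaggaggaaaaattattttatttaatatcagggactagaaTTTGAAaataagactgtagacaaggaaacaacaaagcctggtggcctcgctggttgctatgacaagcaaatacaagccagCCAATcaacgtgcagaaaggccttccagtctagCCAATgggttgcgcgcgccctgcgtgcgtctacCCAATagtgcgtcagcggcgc
Cenpa: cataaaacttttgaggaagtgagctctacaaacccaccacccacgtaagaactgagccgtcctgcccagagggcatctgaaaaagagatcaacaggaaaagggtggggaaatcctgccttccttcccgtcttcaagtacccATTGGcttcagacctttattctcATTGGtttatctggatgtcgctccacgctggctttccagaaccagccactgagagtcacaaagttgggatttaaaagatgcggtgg
Hist1h3c: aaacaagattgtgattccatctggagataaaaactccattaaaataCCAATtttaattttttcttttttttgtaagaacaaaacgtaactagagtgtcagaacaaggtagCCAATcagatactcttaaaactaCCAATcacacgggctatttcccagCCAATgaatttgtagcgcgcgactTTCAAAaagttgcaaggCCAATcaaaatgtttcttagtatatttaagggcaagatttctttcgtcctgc
Ifit1 (chr19:34640639-34640888, plus strand) holds 3 ISRE matches, of which 2 overlap. Rsad2 (chr12:26456453-26456702, minus strand) holds 1, and Slfn9 (chr11:82991831-82992080, minus strand) holds 1 beside an NF-kB match. The NF-kB match of Tnip3 (chr6:65590148-65590397, plus strand) begins 54 bases before the start. Ccnb2 (chr9:70421555-70421804, minus strand) holds CCAAT 3 times, with first bases 87, 54 and 21 bases before the start, and 1 upstream CHR match. Another CHR match of Ccnb2 begins 4 bases after the start, in the searched window but past the printed bases. Cenpa (chr5:30666636-30666885, plus strand) holds CCAAT on the other strand 2 times. Its CHR match begins 16 bases after the start, also past the printed bases. Hist1h3c, H3c3 in RefSeq (chr13:23745522-23745771, minus strand), holds CCAAT 5 times and 1 CHR match.

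The type I interferon-stimulated genes made the largest block of falls among the lists. Of 42 tested, 25 fell and none rose, with a median log2 fold change of -1.87, against 4.82% called lower and a median of -0.08 over all genes tested. Cmpk2, a mitochondrial nucleotide kinase, stood at 209 and 437 TPM at 2h and 25.7 and 26.3 TPM at 6h (log2 fold change -3.49, SE 0.47, adjusted p = 6.74e-05). Mx2, a dynamin-like antiviral GTPase, stood at 52.6 and 107 TPM at 2h and 7.01 and 4.79 TPM at 6h (log2 fold change -3.48, SE 0.42, adjusted p = 2.05e-05), and its relative Mx1 at 326 and 798 TPM at 2h and 52.6 and 63.8 TPM at 6h (log2 fold change -3.12, SE 0.51, adjusted p = 0.000416). In these 3 genes the lower 2h library was above both 6h libraries by several fold, and 2h B was the higher of the 2h pair. Ifit1, which binds viral RNA caps, stood at 384 and 966 TPM at 2h and 49 and 68.2 TPM at 6h (log2 fold change -3.37, SE 0.55, adjusted p = 0.000432). Rsad2 (viperin, an enzyme that makes a chain-terminating nucleotide) stood at 589 and 1390.0 TPM at 2h and 65.9 and 142 TPM at 6h (log2 fold change -3.21, SE 0.59, adjusted p = 0.00122). Usp18, which removes ISG15 from proteins and blocks the interferon receptor, stood at 322 and 622 TPM at 2h and 56.6 and 45.6 TPM at 6h (log2 fold change -3.11, SE 0.55, adjusted p = 0.00077). By 20h Ifit1 was at 17.9 and 9.23 TPM and Rsad2 at 13 and 13.1 TPM, and at 0h Ifit1 was at 16.3 and 21.8 TPM. The ISRE was found in 18 of 35 windows of the listed genes tested (51.4%).

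Some members of this group were not called. Isg15, the ubiquitin-like modifier, stood at 689.9 and 1285 TPM at 2h and 328 and 125 TPM at 6h and fell (log2 fold change -2.21, SE 0.64, adjusted p = 0.0322). Irf7, the transcription factor that amplifies interferon production, was not called, at 914 and 1709 TPM at 2h and 857 and 442 TPM at 6h (log2 fold change -1.02, SE 0.67, adjusted p = 0.406). Its 2h and 6h libraries nearly met, with 6h A close to 2h A. Bst2 (tetherin) was not called either, at 257 and 451 TPM at 2h and 332 and 88 TPM at 6h (log2 fold change -0.99, SE 0.61, adjusted p = 0.368). The count of 25 lower genes was 11 without 2h B and 16 without 6h B, and it was 27 after either rescaling. Single libraries ended the calls of Rsad2 (adjusted p = 0.0539 without 2h B) and Isg15 (0.309 without 2h B, 0.329 without 6h B), while Cmpk2, Mx1, Mx2, Ifit1 and Usp18 were called in all 4 such fits.

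Related genes outside that list, chosen after their values were seen, moved the same way. Of 7 Ifit1-like and Slfn genes tested, 4 fell and none rose. Slfn9 stood at 20.9 and 36.1 TPM at 2h and 3.95 and 1.1 TPM at 6h (log2 fold change -3.14, SE 0.43, adjusted p = 9.05e-05), and Slfn8 at 105 and 174 TPM at 2h and 26.6 and 19.7 TPM at 6h (log2 fold change -2.51, SE 0.41, adjusted p = 0.000425). The Schlafen proteins bind RNA and restrain cell growth and virus replication. In the Ifit cluster (GRCm38.p6 chr19:34550550-34662981), 5 of 6 genes tested fell, and in the Slfn cluster (chr11:82942341-83215154) 4 of 9 fell. Near-identical neighbours such as Ifit1 and Ifit1bl1 can share reads, so the split between them is uncertain. Helz2, a helicase and coactivator of nuclear receptors, stood at 87.6 and 108 TPM at 2h and 22.2 and 11.2 TPM at 6h (log2 fold change -2.55, SE 0.34, adjusted p = 6.74e-05). Interferon-inducible GTPases (Gbp and Irg families) had none of 14 called, at a median of -1.15. The largest change among them was Gbp5, at 40.7 and 77.3 TPM at 2h and 14.9 and 19.8 TPM at 6h (log2 fold change -1.65, SE 0.67, adjusted p = 0.135).

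**Figure D2:**
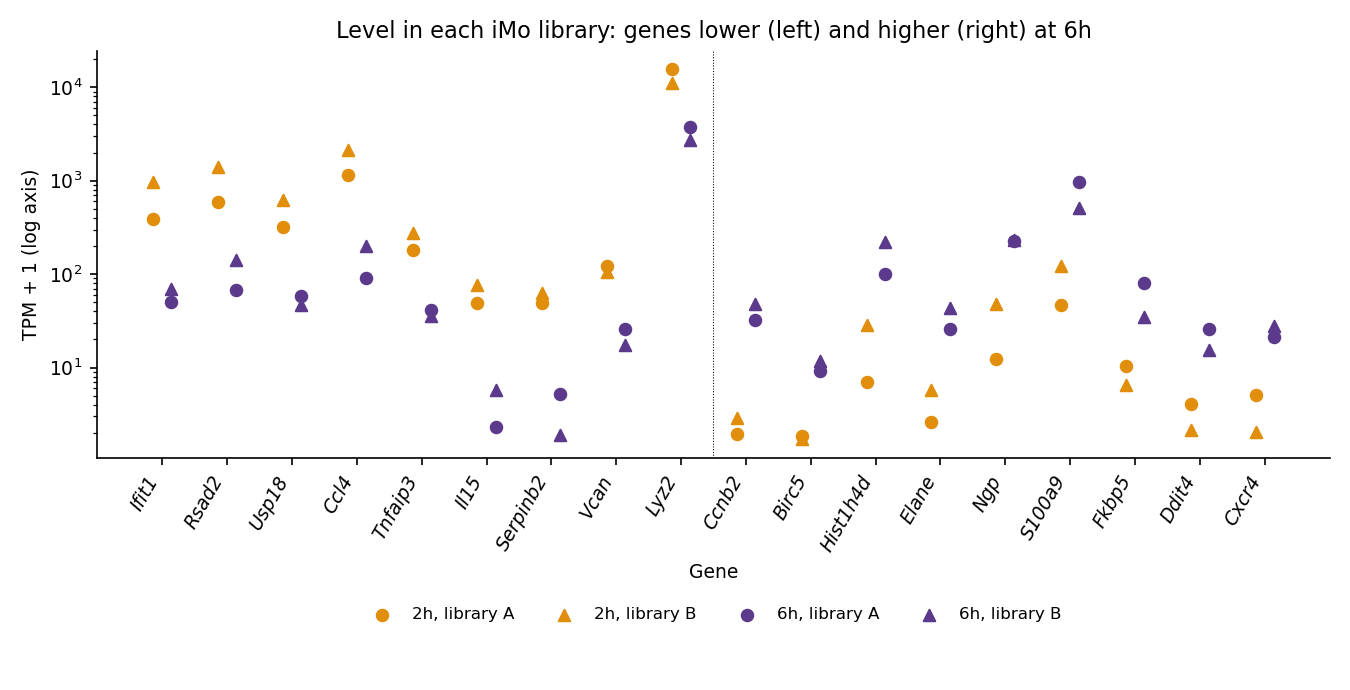
TPM+1 (log axis) of 18 genes in each iMo library, with 2h in orange, 6h in purple, A as circles and B as triangles. The 2h and 6h libraries of Ifit1, Rsad2, Tnfaip3, Il15 and Ccnb2 lie apart.

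NF-kB subunits and feedback inhibitors fell in 6 of 16 members tested, none rose, and the median was -1.05. Tnip3, a partner of A20 that restrains NF-kB, stood at 63.3 and 113 TPM at 2h and 7.86 and 9.37 TPM at 6h (log2 fold change -3.16, SE 0.47, adjusted p = 0.000182). Tnfaip3, the gene of A20 itself, stood at 182 and 272 TPM at 2h and 40.0 and 34.3 TPM at 6h (log2 fold change -2.56, SE 0.45, adjusted p = 0.000672). Nfkb1, the p105 precursor of the p50 subunit, stood at 139 and 179 TPM at 2h and 42.9 and 31.8 TPM at 6h (log2 fold change -2.07, SE 0.40, adjusted p = 0.00204). In all 3 both 6h libraries lay far below both 2h libraries. Nfkbia, the gene of IkB alpha, was not called, at 732 and 1533 TPM at 2h and 445 and 730.4 TPM at 6h (log2 fold change -0.89, SE 0.61, adjusted p = 0.43), and 6h B nearly reached 2h A. Rela, which encodes the p65 subunit, was not called (log2 fold change -0.42, SE 0.42, adjusted p = 0.611). The NF-kB motif was in 12 of 18 windows of this list (66.7%). The 6 calls were 3 without 2h B, and Tnip3, Tnfaip3 and Nfkb1 were called in all 4 such fits.

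Of 16 proinflammatory cytokines tested, 4 fell and none rose, with a median of -1.31. Il15, which sustains natural killer and memory T cells, stood at 48.4 and 75.4 TPM at 2h and 1.33 and 4.8 TPM at 6h (log2 fold change -4.06, SE 0.55, adjusted p = 7.47e-05). Both 6h libraries lay below the 0h libraries, at 19.4 and 32.5 TPM. Tnfsf10 (TRAIL, a death ligand) stood at 13.6 and 22.6 TPM at 2h and 2.05 and 2.95 TPM at 6h (log2 fold change -2.42, SE 0.41, adjusted p = 0.000546). Il6 stood at 20.8 and 38.4 TPM at 2h and 9.68 and 4.82 TPM at 6h (log2 fold change -1.89, SE 0.42, adjusted p = 0.00539), and Csf1, the macrophage growth factor, at 5.66 and 12.1 TPM at 2h and 2.84 and 1.31 TPM at 6h (log2 fold change -1.65, SE 0.45, adjusted p = 0.0208). Il1b was not called, at 678 and 1549 TPM at 2h and 242 and 145 TPM at 6h (log2 fold change -2.44, SE 0.84, adjusted p = 0.075). Its 2h and 6h libraries did not overlap, which held for 50.2% of all genes tested. Tnf was not called either, at 26.4 and 35.3 TPM at 2h and 12.8 and 12.2 TPM at 6h (log2 fold change -1.23, SE 0.46, adjusted p = 0.112). Il10, an anti-inflammatory cytokine, fell from low levels, at 8.51 and 9.69 TPM at 2h and 1.95 and 0.467 TPM at 6h (log2 fold change -2.28, SE 0.50, adjusted p = 0.00518), and stood at 8.75 and 8.81 TPM at 20h. Left-out libraries ended the calls of Il6 (adjusted p = 0.142 without 2h B, 0.112 without 6h B), Csf1 (0.318 without 2h B, 0.212 without 6h B) and Il10 (0.0689 without 2h B, 0.107 without 6h B), and Csf1 also lost its call after rescaling, while Il15 and Tnfsf10 were called in all 4 fits.

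Chemokines split by gene. Of 12 CC chemokines tested, 3 fell and none rose, with a median of -0.47. Ccl4, a chemoattractant of monocytes and T cells, stood at 1163 and 2136 TPM at 2h and 88.9 and 199 TPM at 6h (log2 fold change -3.56, SE 0.73, adjusted p = 0.00312), and its neighbour Ccl3 at 304 and 509 TPM at 2h and 60.2 and 61.9 TPM at 6h (log2 fold change -2.67, SE 0.57, adjusted p = 0.00413). Ccl5, a T cell chemoattractant, stood at 2197 and 5124 TPM at 2h and 2155 and 2530.0 TPM at 6h (log2 fold change -0.52, SE 0.86, adjusted p = 0.781) and was not called. Ccl2, the main ligand of CCR2, was not called at 178 and 382 TPM at 2h and 336 and 365 TPM at 6h (log2 fold change 0.42, SE 0.58, adjusted p = 0.735), with 6h inside the range of 2h. Of the ligands of CXCR3, the receptor of activated T cells, Cxcl11 stood at 53.4 and 122 TPM at 2h and 3.69 and 8.73 TPM at 6h (log2 fold change -3.60, SE 0.55, adjusted p = 0.000224) and was listed at 0 in both libraries of 20h. Cxcl10 was not called, at 3861 and 8795 TPM at 2h and 612 and 816 TPM at 6h (log2 fold change -3.04, SE 1.09, adjusted p = 0.0893), with a wide error. Single libraries ended the calls of Ccl4 (adjusted p = 0.0727 without 2h B, 0.0519 without 6h A), Ccl3 (0.0922 without 2h B) and Ccl9 (0.0986 without 2h A, 0.207 without 2h B, 0.179 without 6h A, 0.106 without 6h B). Ccl9 also lost its call after either rescaling, and Cxcl11 was called in all 4 fits.

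Receptors and effectors downstream of TLR4 fell in part. Cd14, the LPS co-receptor, stood at 351 and 749 TPM at 2h and 89.7 and 132 TPM at 6h (log2 fold change -2.23, SE 0.48, adjusted p = 0.00432), with 2h B the highest. Of 19 genes of TLR4 and its signalling, Cd14 and the kinase Ripk2 fell, and none rose (median -0.73), against 4.82% called lower over all genes tested. Nos2, the inducible nitric oxide synthase, stood at 41 and 62.3 TPM at 2h and 7.14 and 7.49 TPM at 6h (log2 fold change -2.63, SE 0.39, adjusted p = 0.000182), above both libraries of 0h (0 and 0.427 TPM) at either time. Of 15 itaconate, arginine and oxidant enzymes, 4 fell and none rose. Costimulatory and inhibitory ligands fell in 4 of 10, Cd69, Cd40, Cd86 and Slamf1, and none rose. Cd40, which T helper cells engage, stood at 135 and 196 TPM at 2h and 36.6 and 30.4 TPM at 6h (log2 fold change -2.25, SE 0.67, adjusted p = 0.039). Among 15 genes of inflammasomes and lytic cell death, Casp4 (caspase-11, the sensor of cytosolic LPS), Aim2, Naip2 and Naip5 fell. Casp4 stood at 215 and 368 TPM at 2h and 64.8 and 56.8 TPM at 6h (log2 fold change -2.19, SE 0.50, adjusted p = 0.00679). Ripk3, the kinase of necroptosis, rose, at 18.1 and 13.1 TPM at 2h and 51.4 and 45.1 TPM at 6h (log2 fold change 1.58, SE 0.42, adjusted p = 0.0173). Left-out libraries ended the calls of Cd14 (adjusted p = 0.138 without 2h B, 0.0534 without 6h A), Ripk2 (0.369 without 2h B, 0.185 without 6h A, 0.114 without 6h B), Cd40 (0.062 without 2h A, 0.269 without 2h B, 0.102 without 6h A, 0.185 without 6h B), Casp4 (0.142 without 2h B, 0.0684 without 6h B) and Ripk3 (0.194 without 2h B, 0.0941 without 6h A, 0.0736 without 6h B). Cd40 also lost its call after either rescaling. Without 2h B and without 6h B none of the costimulatory or inflammasome genes was called.

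The largest fall of a single gene lay outside the lists. Rilpl1, which binds Rab GTPases at lysosomes and cilia, stood at 31.6 and 57.9 TPM at 2h and 1.13 and 0.271 TPM at 6h (log2 fold change -4.74, SE 0.44, adjusted p = 1.2e-06), and at 1.37 and 3.74 TPM at 0h. Serpinb2, plasminogen activator inhibitor 2, stood at 47.6 and 61.3 TPM at 2h and 4.26 and 0.919 TPM at 6h (log2 fold change -4.11, SE 0.57, adjusted p = 9.05e-05) and was listed at 0 in both libraries of 0h. Steap4, a metalloreductase, was at 5.88 and 15.1 TPM at 2h and was listed at 0 in both libraries of 6h, so no fold is given. Vcan, a matrix proteoglycan typical of classical monocytes, stood at 121 and 104 TPM at 2h and 24.8 and 16.5 TPM at 6h (log2 fold change -2.42, SE 0.47, adjusted p = 0.00198). Thbs1, a matrix protein that binds CD36 and CD47, stood at 113 and 266 TPM at 2h and 17.1 and 22.2 TPM at 6h (log2 fold change -3.09, SE 0.74, adjusted p = 0.00892). Dusp16, a phosphatase of JNK and p38, stood at 60.9 and 102 TPM at 2h and 20.8 and 9.76 TPM at 6h (log2 fold change -2.38, SE 0.43, adjusted p = 0.000874). Lyz2, the lysozyme of myeloid cells, stood at 15583 and 11201 TPM at 2h and 3733 and 2712 TPM at 6h (log2 fold change -2.05, SE 0.54, adjusted p = 0.0166), against 42397 and 38457 TPM at 0h and 6818 and 7133 TPM at 20h. In each of these genes both 6h libraries were below both 2h libraries, and nearly all called genes showed such separation. Without single libraries the calls of Thbs1 (adjusted p = 0.173 without 2h B, 0.0644 without 6h A, 0.0516 without 6h B) and Lyz2 (0.0949 without 2h A, 0.0727 without 2h B, 0.143 without 6h B) were lost, and that of Lyz2 also under quantile normalization, while Rilpl1, Serpinb2, Steap4, Vcan and Dusp16 were called in all 4 fits.

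Genes of mitosis rose. Of 14 G2/M genes tested of 16 listed, 11 rose and none fell, with a median of 1.67, against 3.3% called higher over all genes. Ccnb2, cyclin B2, was the largest rise, at 0.963 and 1.9 TPM at 2h and 31.4 and 46.4 TPM at 6h (log2 fold change 4.04, SE 0.43, adjusted p = 6.22e-06). It stood at 0 and 1.15 TPM at 0h and 24.1 and 16.8 TPM at 20h. Birc5 (survivin, of the chromosomal passenger complex) stood at 0.864 and 0.71 TPM at 2h and 8.16 and 10.7 TPM at 6h (log2 fold change 2.53, SE 0.43, adjusted p = 0.000539), and Cdc20, an activator of the anaphase-promoting complex, at 1.66 and 1.91 TPM at 2h and 12.9 and 14.4 TPM at 6h (log2 fold change 2.39, SE 0.40, adjusted p = 0.000546). Both 6h libraries of these 3 genes were several fold above both 2h libraries. Plk1, a mitotic kinase, was uneven, at 0.335 and 1.32 TPM at 2h and 12.3 and 2.76 TPM at 6h (log2 fold change 2.00, SE 0.44, adjusted p = 0.00501), with 6h A far above 6h B. Top2a, topoisomerase 2, stood at 3.7 and 5.05 TPM at 2h and 16 and 12.3 TPM at 6h (log2 fold change 1.50, SE 0.32, adjusted p = 0.00409). Mki67, the Ki-67 antigen, was not called, at 4.1 and 6.79 TPM at 2h and 15.7 and 6.82 TPM at 6h (log2 fold change 0.86, SE 0.39, adjusted p = 0.198), and 6h B was level with 2h B. The count of 11 was 6 without 2h B, 4 without 6h A and 7 without 6h B. Ccnb2, Birc5, Cdc20 and Top2a were called in all 4 such fits, and Plk1 (adjusted p = 0.0589 without 2h A, 0.15 without 6h A) was not. In the windows of the G2/M genes tested, CCAAT was found in 11 of 12 (91.7%) and CHR in 10 of 12 (83.3%).

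Other cell division genes, a list chosen after the values were seen, rose in 14 of 45 tested with none lower. Cenpa, the histone H3 variant of centromeres, stood at 1.91 and 8.46 TPM at 2h and 32.8 and 44 TPM at 6h (log2 fold change 2.89, SE 0.49, adjusted p = 0.000573). Cdca8 (borealin) stood at 1.37 and 1.2 TPM at 2h and 15.7 and 10.5 TPM at 6h (log2 fold change 2.60, SE 0.32, adjusted p = 3.19e-05), and Cdca3, a trigger of mitotic entry, at 0.996 and 1.31 TPM at 2h and 17.7 and 11.9 TPM at 6h (log2 fold change 2.85, SE 0.49, adjusted p = 0.00063). Tuba1a, an alpha tubulin, stood at 1.86 and 0.916 TPM at 2h and 14.4 and 9.58 TPM at 6h (log2 fold change 2.45, SE 0.48, adjusted p = 0.00225). Genes of G1/S and DNA replication rose in 5 of 16 tested, with a median of 1.09 and none lower. Cdt1, a loader of the replicative helicase, stood at 4.06 and 3.33 TPM at 2h and 13.6 and 15.3 TPM at 6h (log2 fold change 1.72, SE 0.39, adjusted p = 0.00573). Rrm2, a subunit of ribonucleotide reductase, stood at 1.36 and 3.13 TPM at 2h and 10.5 and 7.28 TPM at 6h (log2 fold change 1.65, SE 0.36, adjusted p = 0.00518). Mcm5, a helicase subunit, stood at 2.8 and 3.54 TPM at 2h and 11.1 and 9.23 TPM at 6h (log2 fold change 1.42, SE 0.33, adjusted p = 0.00716) and at 46.6 and 42.4 TPM at 20h, so that its 20h libraries were above those of 6h. The G1/S count was 3 without 2h A, 2 without 2h B, 1 without 6h A and 2 without 6h B. After rescaling it was 11. Myc stood at 7.7 and 1.21 TPM at 2h and 13.4 and 17.8 TPM at 6h (log2 fold change 1.91, SE 0.45, adjusted p = 0.00797). Left-out libraries ended the calls of Tuba1a (adjusted p = 0.057 without 2h B), Cdt1 (0.0836 without 2h B, 0.0599 without 6h B), Rrm2 (0.0709 without 2h A, 0.0608 without 6h A), Mcm5 (0.0588 without 6h A) and Myc (0.336 without 2h B, 0.0907 without 6h B).

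Histone genes made the largest block of rises among the lists. This list was chosen after its values were seen. Of 73 histone genes in it, 40 were tested, 28 rose and none fell, with a median of 2.39, against 3.3% called higher over all genes tested. A gene could pass the filter of 5 TPM in 2 libraries through the 6h libraries alone. Among the iMo libraries Hist1h3d reached 5 TPM only in those of 6h, at 5.05 and 20.6 TPM. The count of 28 and the median therefore depend in part on the filter. In the Hist1 cluster (GRCm38.p6 chr13:21722044-23764412) 23 of 30 genes tested rose, and in the Hist2 cluster (chr3:96219885-96270192) 4 of 4. Hist1h2ak stood at 0 and 0.908 TPM at 2h and 14.2 and 22.8 TPM at 6h (log2 fold change 3.79, SE 0.61, adjusted p = 0.000379). Hist1h4d stood at 6.06 and 27.9 TPM at 2h and 99.4 and 218 TPM at 6h (log2 fold change 3.38, SE 0.64, adjusted p = 0.0015), and Hist1h3c at 0 and 1.01 TPM at 2h and 8.85 and 19.1 TPM at 6h (log2 fold change 3.31, SE 0.49, adjusted p = 0.000182). In each, 6h B was the highest library. Hist2h4 stood at 5.8 and 3.81 TPM at 2h and 37.7 and 43 TPM at 6h (log2 fold change 2.85, SE 0.33, adjusted p = 2.03e-05). H2afx, the variant that marks DNA breaks, stood at 10.9 and 6.43 TPM at 2h and 47.9 and 56.9 TPM at 6h (log2 fold change 2.50, SE 0.35, adjusted p = 9.05e-05). Of the variants made outside S phase, H3f3b changed by -0.53, H3f3a by -0.08, H2afz by -0.22 and H1f0 by 0.38, and these 4 were not called. Cenpa, the centromere variant given above, was called higher. Near-identical histone copies can share reads, so the split between copies is uncertain. Replication-dependent histone messages mostly end without a poly(A) tail, and the libraries were made from poly(A) RNA. The library highest in these genes, 6h B, also had the highest Rn45s share (25.02%). With the Rn45s share as a covariate 28 histone genes were called higher, without 6h B the number was 10, and with a pseudocount of 0.1 TPM it was 13. The 5 histone genes given with values were called whichever of the 4 libraries was left out. The part of the Rn45s share in the rises was not tested beyond these fits.

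Granule genes, which neutrophil precursors make in the bone marrow, also rose. Of 15 neutrophil markers tested, 7 rose and 1 fell, with a median of 1.54. Over all genes tested 3.3% were called higher and 4.82% lower. Ngp, neutrophilic granule protein, stood at 11.5 and 46.5 TPM at 2h and 228 and 229.7 TPM at 6h (log2 fold change 3.24, SE 0.56, adjusted p = 0.00063). Elane, neutrophil elastase of primary granules, stood at 1.61 and 4.77 TPM at 2h and 25 and 41.9 TPM at 6h (log2 fold change 3.10, SE 0.49, adjusted p = 0.000365). Camp, cathelicidin, stood at 2.48 and 62.9 TPM at 2h and 172 and 119 TPM at 6h (log2 fold change 3.27, SE 0.83, adjusted p = 0.0143), with 2h A far below 2h B. Outside the granule genes, S100a9 stood at 45.4 and 121 TPM at 2h and 969 and 512 TPM at 6h (log2 fold change 3.23, SE 0.79, adjusted p = 0.0111), and S100a8, its partner in calprotectin, at 143 and 282 TPM at 2h and 1572 and 781 TPM at 6h (log2 fold change 2.46, SE 0.58, adjusted p = 0.00769). Prtn3, proteinase 3, chosen after its values were seen, stood at 6.89 and 4.53 TPM at 2h and 44.7 and 33.4 TPM at 6h (log2 fold change 2.59, SE 0.42, adjusted p = 0.000432), and both 0h libraries, at 40.1 and 30.2 TPM, were at the 6h level. Csf3r, the receptor of granulocyte colony-stimulating factor, fell, at 84.7 and 108 TPM at 2h and 36.2 and 27.5 TPM at 6h (log2 fold change -1.57, SE 0.41, adjusted p = 0.0163).

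Of the markers of mature neutrophils, Ly6g, Cxcr2 and Retnlg were low in the same libraries. S100a8, S100a9 and Csf3r of the same list, given above, were not. Ly6g stood at 0.805 and 0.529 TPM at 2h and 1.84 and 1.33 TPM at 6h, Cxcr2 at 0.727 and 0.159 TPM at 2h and 2.78 and 2.0 TPM at 6h and Retnlg at 1.22 and 2.41 TPM at 2h and 7.01 and 15.1 TPM at 6h. Both 6h libraries of each were above both 2h libraries, but 50.2% of all genes tested also had no overlap between the times. None of the 3 was called by limma, and the smallest adjusted p was that of Retnlg, at 0.0584. In the IM libraries of 6h these 3 genes were higher, with Ly6g at 26.3 and 51.2 TPM, Cxcr2 at 49.5 and 132 TPM and Retnlg at 423 and 1032 TPM. Elane was lower in IM, at 2.55 and 2.2 TPM in IM at 6h against 25.0 and 41.9 TPM in iMo. The summed TPM of the 16 neutrophil markers was 2334 and 6187 in iMo at 2h and 8842 and 5768 at 6h, against 242.5 and 158.9 at 0h, and most of it at 2h and 6h was Lcn2, which was not called. Mpo was below the filter, at 1.46 and 0.574 TPM at 2h and 3.00 and 2.40 TPM at 6h. Mmp9, a matrix protease of the same list, was called higher by limma (log2 fold change 1.54, SE 0.44, adjusted p = 0.0314). It stood at low levels, 0.7 and 0.153 TPM at 2h and 4.01 and 2.31 TPM at 6h, and its call depended on single libraries. The count of 7 was 3 without 2h A and 3 without 6h A. Without single libraries the calls of Camp (adjusted p = 0.361 without 2h A, 0.0961 without 6h A, 0.0633 without 6h B), S100a9 (0.112 without 2h A, 0.105 without 6h A), S100a8 (0.0858 without 2h A, 0.108 without 6h A) and Csf3r (0.171 without 2h B, 0.143 without 6h B) were lost, while Ngp and Elane were called in all 4 fits. The part of neutrophil RNA in these rises was not tested.

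Genes induced by glucocorticoids rose in 5 of 11 members tested of 15 listed, none fell, and the median was 1.21. Ddit4, an inhibitor of mTORC1, stood at 3.07 and 1.15 TPM at 2h and 25.1 and 14.5 TPM at 6h (log2 fold change 2.76, SE 0.37, adjusted p = 6.74e-05). Fkbp5, a chaperone of the glucocorticoid receptor, stood at 9.52 and 5.5 TPM at 2h and 79.6 and 34.2 TPM at 6h (log2 fold change 2.69, SE 0.47, adjusted p = 0.000643), and stayed at 47.9 and 45.6 TPM at 20h. Klf9, a zinc-finger factor, stood at 2.49 and 0.891 TPM at 2h and 8.8 and 14.9 TPM at 6h (log2 fold change 2.28, SE 0.40, adjusted p = 0.000715), and Tsc22d3, the leucine zipper GILZ, at 31 and 34.9 TPM at 2h and 108 and 84 TPM at 6h (log2 fold change 1.51, SE 0.46, adjusted p = 0.0418). Both 6h libraries of each were above both 2h libraries, and nearly all called genes showed such separation. Sgk1 was not called (log2 fold change 1.21, SE 0.57, adjusted p = 0.21), nor was the metallothionein Mt2 (log2 fold change -1.66, SE 0.60, adjusted p = 0.0934). The count of 5 was 3 without 2h B, 3 without 6h A and 3 without 6h B. Ddit4, Fkbp5 and Klf9 were called in all 4 such fits, and single libraries ended the call of Tsc22d3 (adjusted p = 0.134 without 2h A, 0.17 without 2h B, 0.186 without 6h A, 0.104 without 6h B). The full glucocorticoid element, searched by a base pattern on both strands, was in 0% of windows of higher genes and 0.448% of lower genes. The share was 0.0869% for all genes tested and 0.167% in the RefSeq table. With 8 matching windows of 9201 over all genes tested, the element was too rare for these shares to be compared.

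**Figure D3:**
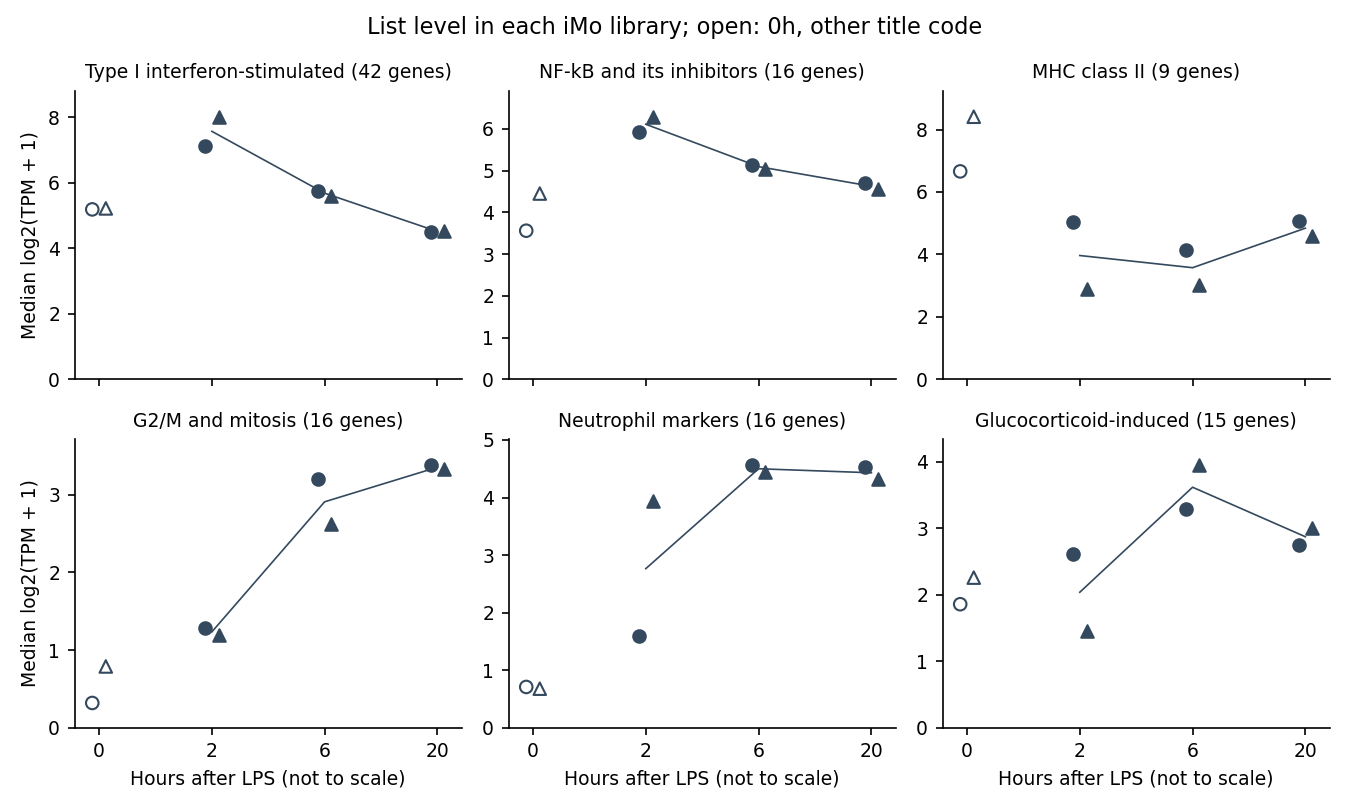
Median log2(TPM+1) of the listed members in each iMo library against hours after LPS, for 6 lists, where open points are the 0h libraries of another title code and lines join the means of 2 libraries. The interferon-stimulated and NF-kB medians fall from 2h to 6h, and the G2/M, neutrophil and glucocorticoid medians rise.

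Receptors of migration and lipid mediators rose singly. Cxcr4, the receptor that retains cells in bone marrow, stood at 4.07 and 1.07 TPM at 2h and 20.1 and 26.8 TPM at 6h (log2 fold change 2.90, SE 0.64, adjusted p = 0.00498), and Ltb4r1, the leukotriene B4 receptor, at 42.5 and 31.4 TPM at 2h and 159 and 146 TPM at 6h (log2 fold change 2.03, SE 0.48, adjusted p = 0.00808). Ccrl2, a receptor that presents chemerin, fell, at 50.4 and 54 TPM at 2h and 8.01 and 8.07 TPM at 6h (log2 fold change -2.56, SE 0.50, adjusted p = 0.00199). Ltc4s, leukotriene C4 synthase, was listed at 0 in both libraries of 2h and stood at 3.88 and 8.37 TPM at 6h. Of 17 alveolar macrophage markers tested, 2 rose and none fell, against 3.3% called higher over all genes tested. Marco, a scavenger receptor, stood at 0.387 and 0 TPM at 2h and 7.97 and 7.64 TPM at 6h (log2 fold change 2.90, SE 0.78, adjusted p = 0.02), and Fabp4, a fatty acid carrier, at 3.27 and 16.5 TPM at 2h and 35 and 41.4 TPM at 6h (log2 fold change 2.18, SE 0.58, adjusted p = 0.0188). Marco reached 196 and 58.5 TPM in iMo at 20h. Summed over the alveolar macrophage markers, the level was 78.2 and 79.4 TPM at 2h and 111.1 and 128.4 TPM at 6h. Chil1, a chitinase-like protein, stood at 2.2 and 2.31 TPM at 2h and 11.6 and 13 TPM at 6h (log2 fold change 2.03, SE 0.44, adjusted p = 0.00423). Left-out libraries ended the calls of Cxcr4 (adjusted p = 0.139 without 2h B, 0.0622 without 6h B), Ltb4r1 (0.124 without 2h B, 0.0534 without 6h A, 0.0542 without 6h B), Ltc4s (0.0551 without 6h B), Marco (0.178 without 2h B, 0.0887 without 6h A, 0.104 without 6h B) and Fabp4 (0.29 without 2h A, 0.0624 without 6h A, 0.124 without 6h B).

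Genes of glucose use split. Slc2a6, a glucose transporter, stood at 162 and 141 TPM at 2h and 26.6 and 17.4 TPM at 6h (log2 fold change -2.76, SE 0.55, adjusted p = 0.00232), and Pfkfb3, which makes the activator of phosphofructokinase, at 82.2 and 149 TPM at 2h and 29.9 and 14.3 TPM at 6h (log2 fold change -2.36, SE 0.42, adjusted p = 0.000763). Both fell, as did Pfkp, though the call of Pfkp was lost whichever library was left out. Of the 20 genes tested, 2 rose. Slc16a3, the lactate exporter MCT4, stood at 22.1 and 8.42 TPM at 2h and 70.0 and 58.9 TPM at 6h (log2 fold change 2.15, SE 0.43, adjusted p = 0.00266), and Tpi1, triosephosphate isomerase, at 20.4 and 15.5 TPM at 2h and 66.3 and 50.0 TPM at 6h (log2 fold change 1.64, SE 0.41, adjusted p = 0.0127). Genes of cholesterol efflux under the nuclear receptor LXR also split. Nr1h3, LXR alpha, stood at 34.2 and 23.8 TPM at 2h and 111 and 67.5 TPM at 6h (log2 fold change 1.57, SE 0.49, adjusted p = 0.0492), and the exporter Abcg1 at 1.52 and 1.59 TPM at 2h and 6.84 and 5.65 TPM at 6h (log2 fold change 1.50, SE 0.41, adjusted p = 0.0233). Abca1, the other exporter, fell to under 1 TPM, at 4.91 and 7.3 TPM at 2h and 0.165 and 0.416 TPM at 6h (log2 fold change -2.45, SE 0.42, adjusted p = 0.00063). Single libraries ended the calls of Slc16a3 (adjusted p = 0.121 without 2h B), Tpi1 (0.157 without 2h B, 0.101 without 6h A), Nr1h3 (0.0643 without 2h A, 0.329 without 2h B, 0.26 without 6h A, 0.0785 without 6h B) and Abcg1 (0.0764 without 2h A, 0.14 without 2h B, 0.12 without 6h A, 0.0818 without 6h B), while Slc2a6, Pfkfb3 and Abca1 were called in all 4 fits.

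Many groups had no member past the threshold. None of 36 genes of the mitochondrial respiratory chain, 36 cytosolic ribosomal proteins, 19 of ribosome biogenesis, 17 of sterol synthesis, 17 of endoplasmic reticulum stress, 12 heat shock proteins or 21 lysosomal genes was called. None of 9 MHC class II genes was called, at a median of -1.39. The largest change among them was H2-Aa, at 128 and 41.9 TPM at 2h and 16.7 and 24.6 TPM at 6h (log2 fold change -1.80, SE 0.87, adjusted p = 0.218), where 2h A was far above the others. Among 22 myeloid transcription factors, Stat5a and Stat3 fell, against 4.82% called lower over all genes tested, and single libraries ended both calls. Of the most abundant messages, Saa3, an acute-phase protein, stood at 5251 and 13281 TPM at 2h and 20369 and 11401 TPM at 6h and Fth1, ferritin heavy chain, at 5948 and 12751 TPM at 2h and 7788 and 15910.0 TPM at 6h. Neither was called, and their 2h and 6h libraries overlapped.

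**Figure D4:**
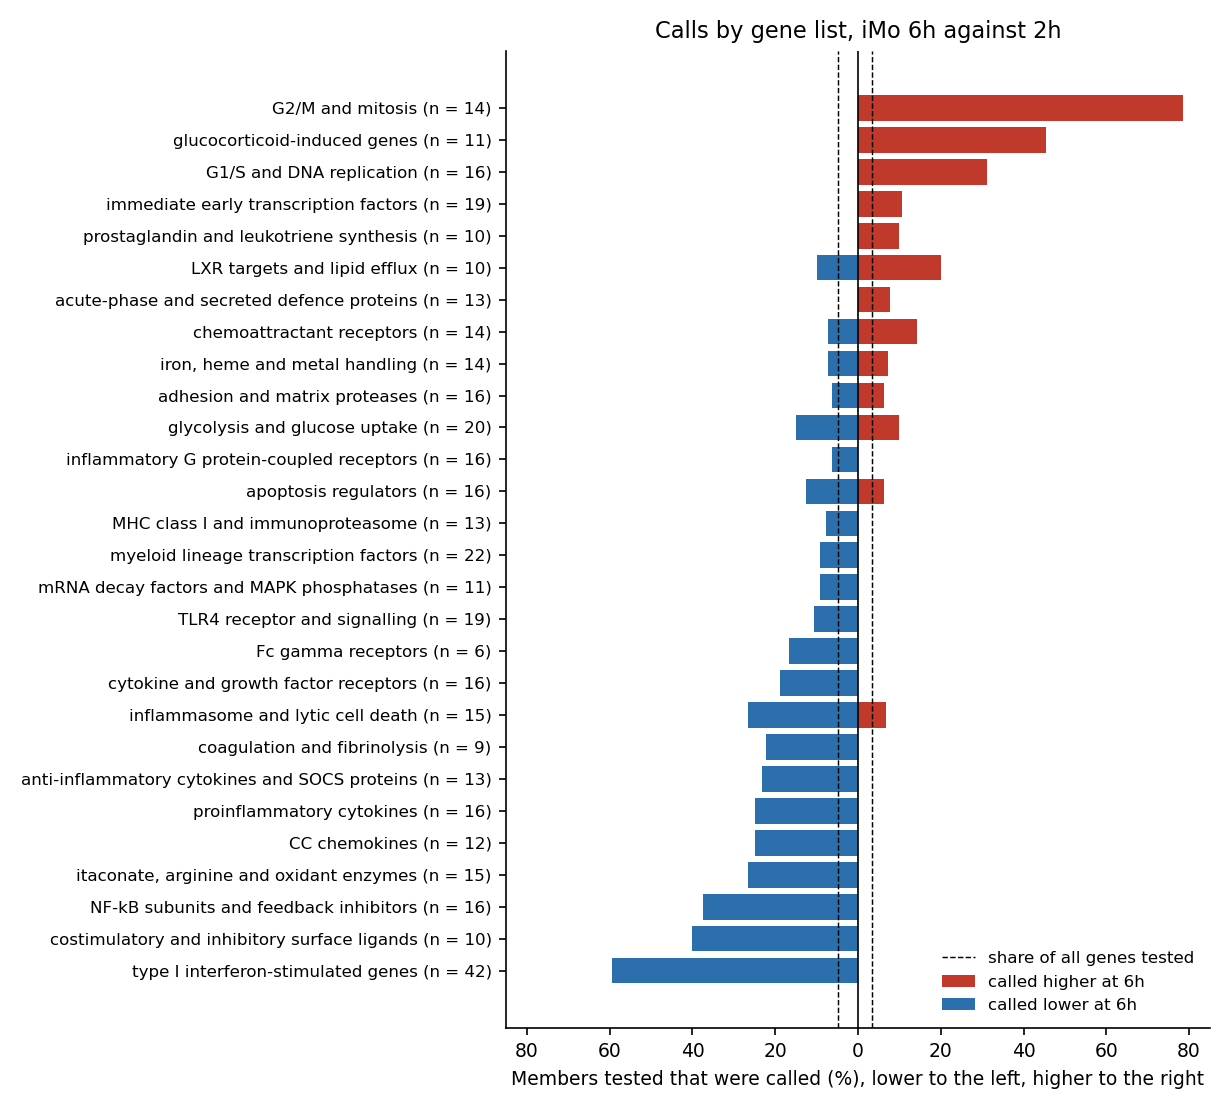
Percent of tested members called higher or lower at 6h, with dashed lines at the share over all genes tested (3.3% higher, 4.82% lower). Marker lists, lists chosen after their values were seen, the smallest lists and lists without a call are not drawn. The G2/M list lies farthest on the higher side, and the interferon-stimulated genes farthest on the lower side.

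Markers of other cell types were read in the same 4 libraries. Interstitial macrophage markers summed to 1039 and 589.7 TPM at 2h and 194.3 and 190.8 TPM at 6h, mostly Apoe. Apoe itself stood at 969 and 566 TPM at 2h and 105 and 124 TPM at 6h (log2 fold change -2.69, SE 1.27, adjusted p = 0.212). Of the 15 interstitial macrophage markers tested, none fell (median 0.09) and 1 rose, against 3.3% called higher over all genes tested. That was Stab1, a scavenger receptor, at 5.49 and 1.77 TPM at 2h and 23.8 and 10.8 TPM at 6h (log2 fold change 2.01, SE 0.54, adjusted p = 0.0208), and left-out libraries ended the call of Stab1 (adjusted p = 0.326 without 2h B, 0.203 without 6h A). Of 12 classical monocyte markers tested, Vcan and Cd14 fell and none rose, with a median of -1.01 against -0.08 over all genes. Lymphocyte markers summed to 36.2 and 17.7 TPM at 2h and 42.0 and 104.2 TPM at 6h, highest in 6h B, with Gzma at 11.8 and 7.2 TPM at 2h and 18.4 and 53.5 TPM at 6h. None of the 7 lymphocyte, 7 epithelial, 10 endothelial, 3 fibroblast or 4 erythroid markers tested was called. Dendritic cell markers summed to 63.4 and 19.3 TPM at 2h and 11 and 17.3 TPM at 6h. Of 5 tested, 1 fell: Cd209a, a C-type lectin, stood at 22 and 5.25 TPM at 2h and 0 and 2.06 TPM at 6h (log2 fold change -2.78, SE 0.74, adjusted p = 0.0185), and left-out libraries ended the call of Cd209a (adjusted p = 0.208 without 2h A, 0.207 without 6h A). The part of these markers in the changes above was not tested.

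The change from 2h to 6h was then compared between cell types within a single limma fit, which held no term for title code. At each time an AM and an IM library carried another code than the iMo libraries. Their Rn45s shares at 2h and 6h were 28.72 and 30.76% in AM and 23.97 and 33.32% in IM. In the other libraries the shares were 6.86 to 15.13% in AM and 4.33 and 6.05% in IM. The part of the title code was not tested beyond the refits given below. AM had 2 libraries at 2h and 3 at 6h, and 125 of 8937 genes differed in their change between iMo and AM (1.4%), 48 more upward in iMo (0.537%) and 77 more downward (0.862%). Rescaling without Rn45s and Lars2 moved the share of these calls that were upward from 38.4 to 52.7%. Ccnb2 rose by 4.04 in iMo and changed by -0.37 in AM, where it stood at 18.8 and 33.1 TPM at 2h and 17.5, 19.0 and 21.0 TPM at 6h (difference 4.41, SE 0.58, adjusted p = 0.000382). Cenpa differed likewise (difference 3.26, SE 0.67, adjusted p = 0.0153), as did Tuba1a (difference 3.46, SE 0.66, adjusted p = 0.00854). Rilpl1 changed by -4.74 in iMo and -0.21 in AM (difference -4.53, SE 0.59, adjusted p = 0.000382). Helz2 changed by -2.55 in iMo and 0.81 in AM (difference -3.35, SE 0.46, adjusted p = 0.000535), and Cmpk2 by -3.49 and -0.24 (difference -3.25, SE 0.63, adjusted p = 0.0113). At 2h in AM, Rilpl1 stood at 0.674 and 1.06 TPM, Helz2 at 2.74 and 2.0 TPM and Cmpk2 at 2.54 and 3.45 TPM. From such levels a fall as large as that in iMo could not have been measured in AM. Ccnb2, Rilpl1 and Helz2 kept this call whichever of the 9 iMo and AM libraries was left out. Cenpa kept it in 6, with an adjusted p of up to 0.0868, Tuba1a in 8, with up to 0.0701, and Cmpk2 in 7, with up to 0.10. The count of 125 fell to 14 without 6h B and 21 without 2h B of iMo, and to 35 without AM 2h B and 45 without AM 6h A, and it rose to 240 without 2h A of iMo.

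By group, the change was more downward in iMo than in AM in 12 of 42 interferon-stimulated genes and more upward in none. Their median change was -1.87 in iMo, -1.37 in IM and 0.19 in AM. These genes summed to 294.7 and 398.6 TPM in AM at 2h, against 9601 and 18245 TPM in iMo. At that low starting level in AM, the difference in change largely restates the fall in iMo. Of the G2/M genes 6 of 14 had a more upward change in iMo than in AM, with medians of 1.67 in iMo, 0.63 in IM and -0.24 in AM. For the histone genes it was 6 of 40, with medians of 2.39, 0.47 and 0.07. In 3 of the 16 NF-kB genes the change was more downward in iMo, with medians of -1.05, -1.30 and -0.07. They summed to 287.5 and 399.7 TPM in AM at 2h, against 1793 and 3025 TPM in iMo. Over all genes the medians were -0.08, 0.20 and -0.12. Against IM, no gene differed in its change (0% of 8937), by limma at an adjusted p under 0.05. The 458 genes with an unadjusted p under 0.05 were near the share that this threshold passes when no gene differs. The median standard error of that difference was 0.60 on the log2 scale. The neutrophil markers summed to 26560 and 35983 TPM in the IM libraries of 2h and 24371 and 78116 TPM in those of 6h, far above iMo, and their part in this comparison was not tested. Both comparisons share the 4 iMo libraries.

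**Figure D5:**
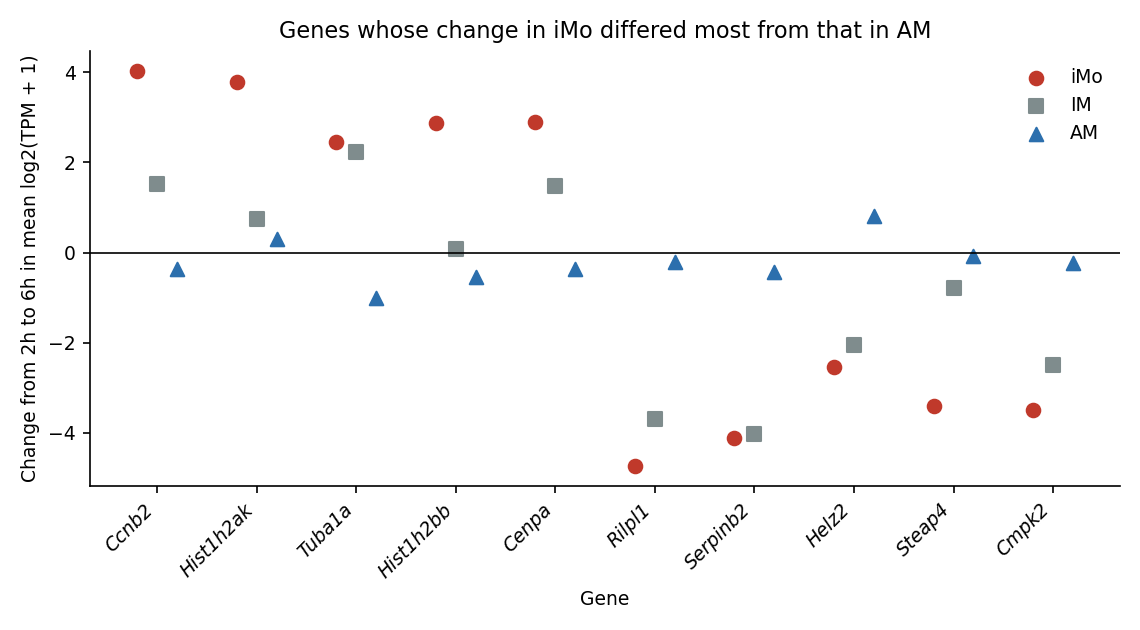
Change from 2h to 6h in mean log2(TPM+1) for 10 genes in iMo, IM and AM, without error bars. The genes were chosen for the largest differences between iMo and AM, so that contrast is set by the choice: changes lie between -4.74 and 4.04 in iMo, -4.02 and 2.24 in IM, and -1.01 and 0.81 in AM.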

How the data were processed

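Messenger RNA of low numbers of sorted cells was amplified by a modified Smart-seq2 protocol, per the labels' protocols. The authors deposited 1 table of TPM values per gene. STAR, HOMER and the mm10 build are named in the submitters' processing notes; tool versions and gene models were not given in the sources used here. TPM is scaled within a library and does not keep read depth, and the deposited columns of 0h and intraperitoneal LPS sum to 331473 to 551635 rather than to 1000000.

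Samples were grouped by title. The 27 libraries of 0h and intraperitoneal LPS (12 groups) were fitted together on log2(TPM+1) in R 4.3.3 with limma 3.58.1, with 1 coefficient per group and empirical Bayes moderation with a trend. The fit kept the 8937 of 23594 genes that reached 5 TPM in 2 or more libraries, had 15 residual degrees of freedom, adjusted p-values by Benjamini-Hochberg over all genes, and called genes under 0.05. The code was tested on simulated data.

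The comparisons were iMo 6h minus 2h, and that change minus the change in IM or in AM. The comparison, gene lists and named genes were chosen with earlier results of these data known. Named genes were the 15 largest rises and falls whose libraries did not overlap and whose higher time had a mean of 10 TPM or more; up to 4 called members of a list in each direction; the 5 largest differences from AM in each direction; genes listed at 0 at 1 time; and the 10 most abundant genes. Gene models were passed over. Further genes of the lists were named after their values were seen. Lists were described by counts and medians, with no test of a list. Promoter windows are from RefSeq GRCm38.p6; 7082 genes were matched by symbol, 184 by synonym and 1671 not. The 18 nasal columns were not used, because their values correlated with the other columns at an r of only 0.0097 to 0.025 across rows. Alternatives changed the pseudocount, filter, scaling, libraries in the fit, array weights, block and Rn45s share, and left out each library. Figures used Python 3.11.15 and matplotlib 3.10.9.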

Additional observations from a re-analysis of the deposited data

Results flagged for a closer look

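The change from 2h to 6h differed between iMo and AM in 125 genes, by limma's test of the difference at an adjusted p under 0.05. Among those with at least 10 TPM in a group, the 5 largest differences upward in iMo were those of Ccnb2 (4.41), Hist1h2ak (3.47), Tuba1a (3.46), Hist1h2bb (3.41) and Cenpa (3.26), on the log2(TPM+1) scale. Hist1h2ak lost this call in 7 of the 9 fits that left out 1 library (adjusted p up to 0.175), and Hist1h2bb in 5 (up to 0.145). The 5 largest downward were those of Rilpl1 (-4.53), Serpinb2 (-3.68), Helz2 (-3.35), Steap4 (-3.33) and Cmpk2 (-3.25). In AM at 2h these 5 genes were low, Rilpl1 at 0.674 and 1.06 TPM, Serpinb2 at 0.545 and 0.898 TPM, Helz2 at 2.74 and 2.0 TPM, Steap4 at 0.654 and 0.662 TPM and Cmpk2 at 2.54 and 3.45 TPM, so these differences largely restate the fall in iMo. Steap4 was listed at 0 in both iMo libraries of 6h, so its difference depends on the pseudocount and is no bound, and it lost the call in 3 of the 9 fits (up to 0.151). Serpinb2 lost it in 5 (up to 0.121).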

How the results depend on the processing

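Of 726 genes called between 2h and 6h in iMo (295 higher, 431 lower), leaving out 1 library gave 223 to 823 (84 to 461 higher, 139 to 402 lower). Without 2h B 223 genes were called, and without 6h B 322. Rescaling to 1000000 without Rn45s and Lars2 gave 1414 calls, 989 higher. Quantile normalization gave 1358, with 683 higher and 675 lower. The libraries of the same title code alone gave 1323, with 484 higher and 839 lower. The Rn45s share as a covariate gave 1451, 870 higher. The 4 libraries alone gave 436, 118 higher, and array weights left 194 higher. The cause was not tested.

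For the difference from IM, 0 genes were called, 3 with a pseudocount of 0.1 TPM (1 higher, 2 lower), 5 with 5 TPM (all higher), and 0 to 7 without 1 library (0 to 2 higher, 0 to 5 lower). For the difference from AM, 125 were called (48 higher, 77 lower), and 14 to 240 without 1 library (4 to 120 higher, 10 to 120 lower). A pseudocount of 0.1 TPM gave 73 (37 lower) and of 5 TPM 216 (165 lower). Rescaling gave 296 (156 higher, 140 lower) and quantile normalization 388 (159 and 229). The same title code alone gave 258 (132 and 126), array weights 40 (9 and 31), and the Rn45s covariate 453 (235 and 218).

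Libraries of the same letter did not deviate together from their group means (r = 0.0836 between iMo of 2h and 6h), so the letters were not taken as pairs. With the letter and title code together as a block, there were 270 calls against AM (108 higher, 162 lower). In iMo there were 1080, of which 719 were among the 726. That block also takes up differences between title codes, so these counts are not those of pairing by letter alone.

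Among named genes, directions changed in 5 uncalled ones. Without 1 library the log2 fold changes ran from -2.14 to 0.41 for Sftpc, -0.20 to 0.90 for Fth1, -0.10 to 0.84 for Actb, -0.20 to 1.27 for Lcn2 and -0.36 to 0.05 for Ifitm3, and Ifitm3 was at 0.17 rescaled, 0.46 under quantile normalization and 0.24 with the covariate. With 2 libraries a group and no depth in TPM, genes near 5 TPM are the least certain.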

Other observations

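Further groups held 1 to 3 genes that changed, by limma over all genes. With 3.3% called higher and 4.82% lower over all genes tested, such counts say little about a group. Of 16 cytokine and growth factor receptors tested, 3 fell: Il1rap, the accessory chain of the interleukin-1 receptor, stood at 17.3 and 24.3 TPM at 2h and 6.47 and 4.92 TPM at 6h (log2 fold change -1.69, SE 0.49, adjusted p = 0.0319), and Tnfrsf1b, a receptor of tumour necrosis factor, at 456 and 626 TPM at 2h and 264 and 156 TPM at 6h (log2 fold change -1.39, SE 0.42, adjusted p = 0.0399). Both 6h libraries of each were below both 2h libraries, and nearly all called genes showed such separation. Of 16 apoptosis regulators, Bcl2a1d, an inhibitor of apoptosis with near-identical copies, stood at 37.2 and 59.9 TPM at 2h and 10.7 and 5.37 TPM at 6h (log2 fold change -2.49, SE 0.54, adjusted p = 0.00472), while Bcl2l1, which encodes BCL-XL, rose, at 3.91 and 6.97 TPM at 2h and 14.4 and 12 TPM at 6h (log2 fold change 1.17, SE 0.37, adjusted p = 0.0474). Tfrc, the transferrin receptor, rose from low levels, at 1.77 and 0.68 TPM at 2h and 5.42 and 3.17 TPM at 6h (log2 fold change 1.26, SE 0.33, adjusted p = 0.0176). Of 10 nonclassical monocyte markers, Spn (CD43) rose, at 7.47 and 2.07 TPM at 2h and 20.9 and 11.2 TPM at 6h (log2 fold change 1.68, SE 0.41, adjusted p = 0.0104), and Adgre4 fell, at 46.9 and 22.7 TPM at 2h and 8.51 and 11.7 TPM at 6h (log2 fold change -1.62, SE 0.45, adjusted p = 0.0256). Single libraries ended the calls of Il1rap (adjusted p = 0.258 without 2h B, 0.072 without 6h A, 0.186 without 6h B), Tnfrsf1b (0.0513 without 2h A, 0.306 without 2h B, 0.316 without 6h B), Bcl2a1d (0.0967 without 2h B, 0.0893 without 6h B), Bcl2l1 (0.277 without 2h A, 0.0685 without 2h B, 0.187 without 6h A, 0.116 without 6h B), Tfrc (0.277 without 2h B, 0.17 without 6h A), Spn (0.326 without 2h B, 0.138 without 6h A) and Adgre4 (0.221 without 2h A, 0.149 without 6h A, 0.0716 without 6h B). Tnfrsf1b also lost its call under quantile normalization and Adgre4 after rescaling.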
